A study of Homo sapiens with 12 samples.

Results

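The 10 transcripts described here encode nucleolar ribosome biogenesis factors, and they were chosen by name from 19686 transcripts in the RNA table and 19849 in the footprint table. They are NOP56 (ENST00000329276), NOP58 (ENST00000264279), FBL (ENST00000221801), DKC1 (ENST00000369550), NCL (ENST00000322723), NPM1 (ENST00000296930), GNL3 (ENST00000418458), BOP1 (ENST00000569669), PES1 (ENST00000354694) and RRS1 (ENST00000320270). Each gene is represented by 1 transcript, and all 10 were present in both tables. The starved cells were RKO, a human colon cancer line of wild-type genotype, kept for 24 hours in 12.5 uM arginine. The fed cells were the same line kept for 24 hours in 400 uM arginine. Both groups were grown in an arginine-free DMEM base with dialyzed serum to which arginine was added back, after plating in complete medium. RNA-seq, which measures transcript levels, and ribosome profiling, which sequences the fragments covered by ribosomes (footprints), were each run on 3 starved and 3 fed libraries. A single line was used, so the values describe that line.

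Ribosomes are made in the nucleolus, where the long precursor of ribosomal RNA is transcribed, chemically modified, cut and joined with ribosomal proteins. Small nucleolar RNAs (snoRNAs) guide the modification: box C/D particles, built on NOP56, NOP58 and the methyltransferase FBL (fibrillarin), methylate ribose, and box H/ACA particles use the pseudouridine synthase DKC1 (dyskerin), which is also a part of telomerase. NCL (nucleolin) and NPM1 (nucleophosmin) are abundant RNA-binding proteins of the nucleolus, and GNL3 (nucleostemin) is a nucleolar GTPase. BOP1 and PES1 belong to 1 complex that matures the large subunit, and RRS1 helps to place the 5S RNA particle into it. Making ribosomes takes much of the amino acid and energy supply of a growing cell, and the growth regulators MYC and mTORC1 are known to control it.

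Some messenger RNAs of the translation machinery begin with a C followed by a run of pyrimidines, the terminal oligopyrimidine start through which mTORC1 controls their translation. The first 20 bases from each annotated start are therefore shown, with an unbroken run of C and T at the first base in capitals. The bases were read from RefSeq promoter windows of build GRCh38.p14. For 7 of the 10 genes 9 windows were used, since NPM1 and GNL3 have 2 annotated starts, and for the other genes none was used.
NOP56 (chr20:2652632-2652651, + strand): attgcgagccgaacccggga
FBL (chr19:39846360-39846379, - strand): CTTTTCCacgtgcgaaagcc
DKC1 (chrX:154762864-154762883, + strand): gggtgggtcctagcagcgcg
NCL (chr2:231464465-231464484, - strand): agtctcgagctctcgctggc
NPM1, downstream start (chr5:171387849-171387868, + strand): CTTTCCCTggtgtgattccg
NPM1, upstream start (chr5:171387116-171387135, + strand): gggcgatgtccttgctaatt
PES1, start inside the gene (chr22:30591891-30591910, - strand): gtccttggcagggcacgtgc
GNL3, upstream start (chr3:52685920-52685939, + strand): gcggccgccaagcgatccct
GNL3, downstream start (chr3:52686032-52686051, + strand): agttcacacgtggcgccagc

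FBL began with a run of 7 pyrimidines and NPM1, at its downstream start, with a run of 8. A C followed by at least 4 pyrimidines opens 4.07% of the 35116 windows in the table. The other windows shown began with a purine. The sequence CACGTG, the E-box core that MYC and related factors bind, reads the same on both strands. It was found in 3 of the 9 windows, in FBL and GNL3 from 6 bases and in PES1 from 13 bases after the start base, so all 3 copies lie within the bases shown, and in FBL it overlaps the pyrimidine run by 1 base. Over all windows, 7.26% hold it. These are matches of letters, and the annotated start need not be the start used in RKO cells.

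Total counts ranged from 4670881 to 7967215 per RNA library and from 2063952 to 4364383 per footprint library, and the 10 transcripts had between 315 and 13195 counts in an RNA library and between 199 and 8433 in a footprint library. A library of each assay stood somewhat apart in starved cells. Chi-square per degree of freedom was 7.22 and 4.71 for starved RNA replicate 2 against the other starved RNA libraries, with 2.23 between those, and 6.24 and 7.73 for starved footprint replicate 1 against the other starved footprint libraries, with 3.46 between those. Levels are given as CPM, counts scaled to library size with TMM factors, and changes as the log2 fold change of starved over fed cells with its standard error. A transcript is called where the Benjamini-Hochberg adjusted p of edgeR's quasi-likelihood test, two-sided and adjusted over all transcripts tested, is under 0.05. Without a spike-in, each change is measured against the bulk of transcripts in its assay. In such bulk libraries fewer cells expressing a gene and less RNA per cell cannot be told apart.

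Most of these factors had more RNA in starved cells. Of the 10 transcripts, 8 were called higher in RNA, 1 (NCL) lower, and 1 (NOP56) was not called, against 33.8% of 11572 tested transcripts called higher and 34.1% called lower. The median log2 fold change was 0.51 over the 10 and −0.01 over all transcripts tested. NOP58 and DKC1 rose more than 2-fold, and FBL and BOP1 by less than 1.2-fold. Footprints followed in part: 4 of the 10 (NOP56, NOP58, DKC1 and GNL3) were called higher, NCL was called lower and 5 were not called, where 18.9% of 13457 tested transcripts were called higher and 20.9% lower. The median footprint log2 fold change was 0.28 over the 10 and 0.05 over all tested. The median of the 10 moved with single libraries, being 0.15 without starved footprint replicate 3 and 0.44 without starved footprint replicate 1. Translational efficiency, here footprints relative to RNA, was called higher for NOP56 and for no other member, and lower for none, where 11.1% of 11027 tested transcripts were called higher and 11.7% lower. That split of 1227 higher and 1292 lower calls depended on the scaling: it was 1567 and 803 with library totals, and 1005 and 1739 with factors from each assay's own transcripts.

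**Figure D1:**
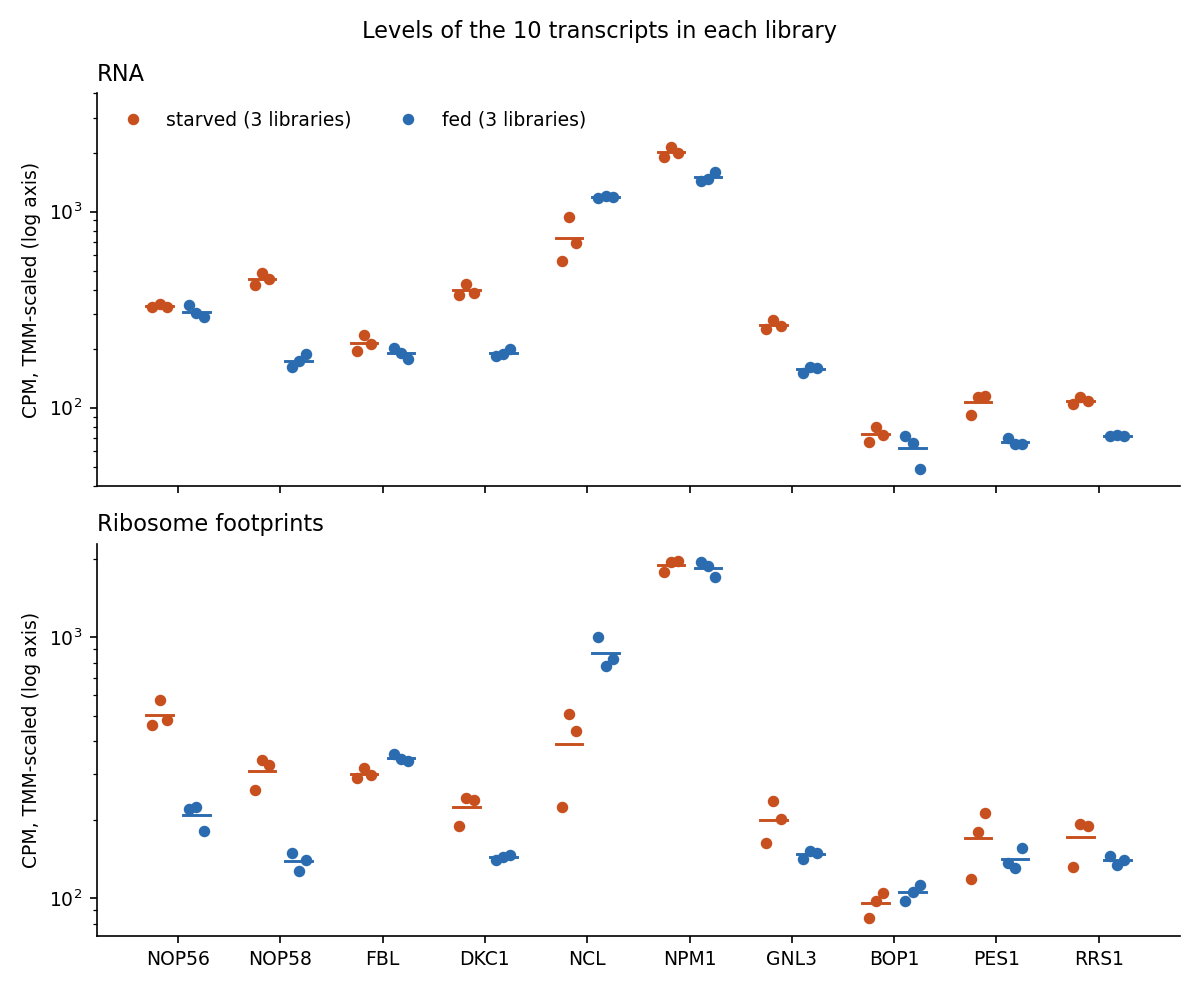
Level of each transcript in every library, as TMM-scaled CPM on a log axis, for RNA (top) and ribosome footprints (bottom); points are libraries, starved on the left and fed on the right, and bars are means of 3 libraries. NOP58 and DKC1 RNA lie higher in all starved libraries, NCL lies lower in both assays, and NOP56 separates in footprints (460 to 574 CPM in starved, 181 to 225 CPM in fed) but not in RNA.

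NOP56, a structural protein of the box C/D particle, gained footprints without a called change in RNA. Its RNA stood at 324, 338 and 325 CPM in the starved libraries, against 332, 302 and 290 CPM in the fed libraries. The groups overlapped, and the log2 fold change of 0.09 (SE 0.07) had an adjusted p of 0.22 in edgeR. Its footprints stood at 460, 574 and 482 CPM in starved cells, against 220.5, 225 and 181 CPM in fed cells. Every starved library was above every fed one, a 2.42-fold difference (log2 fold change 1.28, SE 0.13, edgeR adjusted p = 1.7e-05). Its efficiency was called higher, with a log2 difference of 1.26 (SE 0.14, 95% interval 0.97 to 1.56, edgeR adjusted p = 4.78e-06), a signed value above that of 96.3% of the transcripts tested. Without fed RNA replicate 1, its RNA was also called higher, with a log2 fold change of 0.16 (edgeR adjusted p = 0.0425).

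NOP58, the partner of NOP56 in the same particle, had the largest RNA change of the 10. Its RNA was 423, 484 and 455 CPM in starved libraries and 161, 173 and 187 CPM in fed libraries. The starved libraries all lay above 2-fold of any fed one, and the log2 fold change was 1.39 (SE 0.07, edgeR adjusted p = 2.06e-26). Footprints on NOP58 were 260, 340 and 324 CPM in starved cells against 149, 127 and 140 CPM in fed cells. They rose by nearly as much as the RNA (log2 fold change 1.15, SE 0.14, edgeR adjusted p = 4.19e-05). Its efficiency differed by −0.16 (95% interval −0.45 to 0.13, edgeR adjusted p = 0.45), which is not past the threshold.

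FBL, the methyltransferase that the same particle carries, changed little. Its RNA was 193, 235 and 212 CPM in starved libraries and 202, 189 and 176 CPM in fed libraries. The groups overlapped although the change was called (log2 fold change 0.17, SE 0.07, edgeR adjusted p = 0.0298), and the direction turned, to −0.015, with the abundance trend of each library removed. The call was also lost on leaving out starved RNA replicate 2 or 3 or fed RNA replicate 2 or 3, with log2 fold changes from 0.11 to 0.19. FBL footprints were 289, 315 and 298 CPM in starved cells and 356, 343 and 337 CPM in fed cells. They were lower in all 3 starved libraries, by a log2 fold change of −0.20 (SE 0.11) that was not called (edgeR adjusted p = 0.158).

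The count ratio of NOP56 to NOP58 within a library, in which scaling cancels, separated the treatments in RNA but not in footprints. In RNA it was 0.768, 0.699 and 0.715 in the starved libraries and 2.07, 1.75 and 1.55 in the fed libraries. NOP56 was thus the less counted partner in every starved library and the more counted one in every fed library, a log2 difference of −1.29 between group means (exact permutation test over libraries, two-sided, p = 0.1, the smallest that 3 against 3 libraries allow; 0.133 after Benjamini-Hochberg adjustment over 4 such tests). In footprints the ratio was 1.77, 1.69 and 1.49 in starved and 1.48, 1.77 and 1.29 in fed libraries. Here the groups overlapped, with a log2 difference of 0.13 (exact permutation test, p = 0.4, adjusted 0.4). These are count ratios and, since the transcripts differ in length, give no ratio of molecules.

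**Figure D2:**
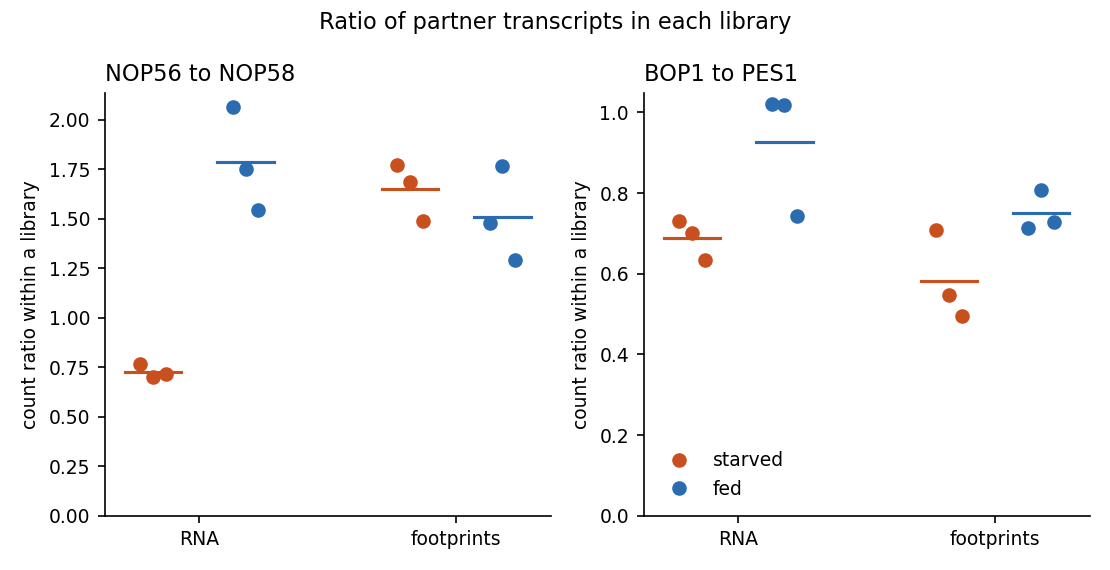
Ratio of the counts of partner transcripts within each library (linear axis from 0), for RNA and for footprints, starved left and fed right; points are libraries and bars are means of 3. The NOP56 to NOP58 ratio in RNA is 0.699 to 0.768 in starved and 1.55 to 2.07 in fed libraries, while the footprint ratios overlap.

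DKC1, the pseudouridine synthase of the box H/ACA particle, rose in both assays. Its RNA was 374, 428 and 385 CPM in starved libraries and 183, 187 and 199.8 CPM in fed libraries, a 2.08-fold difference with no overlap (log2 fold change 1.06, SE 0.07, edgeR adjusted p = 3.28e-21). Footprints on DKC1 were 189.6, 243 and 238 CPM in starved cells and 141, 144 and 146 CPM in fed cells. They rose less than the RNA, 1.56-fold (log2 fold change 0.64, SE 0.13, edgeR adjusted p = 0.00193). DKC1's efficiency difference of −0.33 (95% interval −0.60 to −0.06, edgeR adjusted p = 0.0694) missed the threshold; it was −0.38 and called without starved footprint replicate 2 (edgeR adjusted p = 0.0465).

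NCL, the nucleolin transcript, was the 1 member that fell, and it did so in both assays. Its RNA was 562, 939 and 693 CPM in starved libraries against 1166, 1194 and 1192 CPM in fed libraries. The fed libraries lay close together and the starved ones spread widely, all of them lower (log2 fold change −0.70, SE 0.09, edgeR adjusted p = 7.33e-10). NCL footprints were 225, 508 and 437 CPM in starved cells against 1006, 780 and 827 CPM in fed cells. They fell as well (log2 fold change −1.16, SE 0.23, edgeR adjusted p = 0.00187), and starved replicate 1 was the lowest in both assays. Of the transcripts tested, 5.16% had a lower footprint fold change. Without that replicate of the assay in question the changes were −0.53 in RNA and −0.91 in footprints, both still called. NCL's efficiency difference of −0.38 was the least precise of the 10 (SE 0.27, edgeR adjusted p = 0.335). It was −0.13 without starved footprint replicate 1, −0.18 without starved RNA replicate 2 and −0.60 without starved footprint replicate 2, and called in none of these.

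NPM1, a histone and ribosomal protein chaperone, had the highest counts of the 10 in both assays. Its RNA was 1889, 2139 and 1984 CPM in starved libraries and 1426, 1463 and 1589 CPM in fed libraries, higher without overlap (log2 fold change 0.42, SE 0.08, edgeR adjusted p = 4.38e-06). Its footprints were 1777, 1950 and 1956 CPM in starved cells and 1943, 1881 and 1710 CPM in fed cells. These groups overlapped, with a log2 fold change of 0.04 (95% interval −0.18 to 0.26, edgeR adjusted p = 0.788). The efficiency difference was −0.30 (SE 0.13, edgeR adjusted p = 0.0924); it was called, at −0.37, without fed RNA replicate 3 or without fed footprint replicate 3.

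GNL3 RNA was 251, 281 and 261 CPM in starved libraries and 151, 160 and 159.5 CPM in fed libraries (log2 fold change 0.76, SE 0.07, edgeR adjusted p = 3.81e-15). Its footprints were 163, 237 and 201 CPM in starved cells and 142, 152 and 149.5 CPM in fed cells. Both assays showed no overlap, but the footprint change was smaller (log2 fold change 0.44, SE 0.14, edgeR adjusted p = 0.0267). That call was close to the threshold: it was lost on leaving out starved footprint replicate 2 or 3 or any 1 of the fed footprint libraries, with log2 fold changes from 0.31 to 0.44. It was also lost with no filter on low counts (0.40, edgeR adjusted p = 0.0584).

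**Figure D3:**
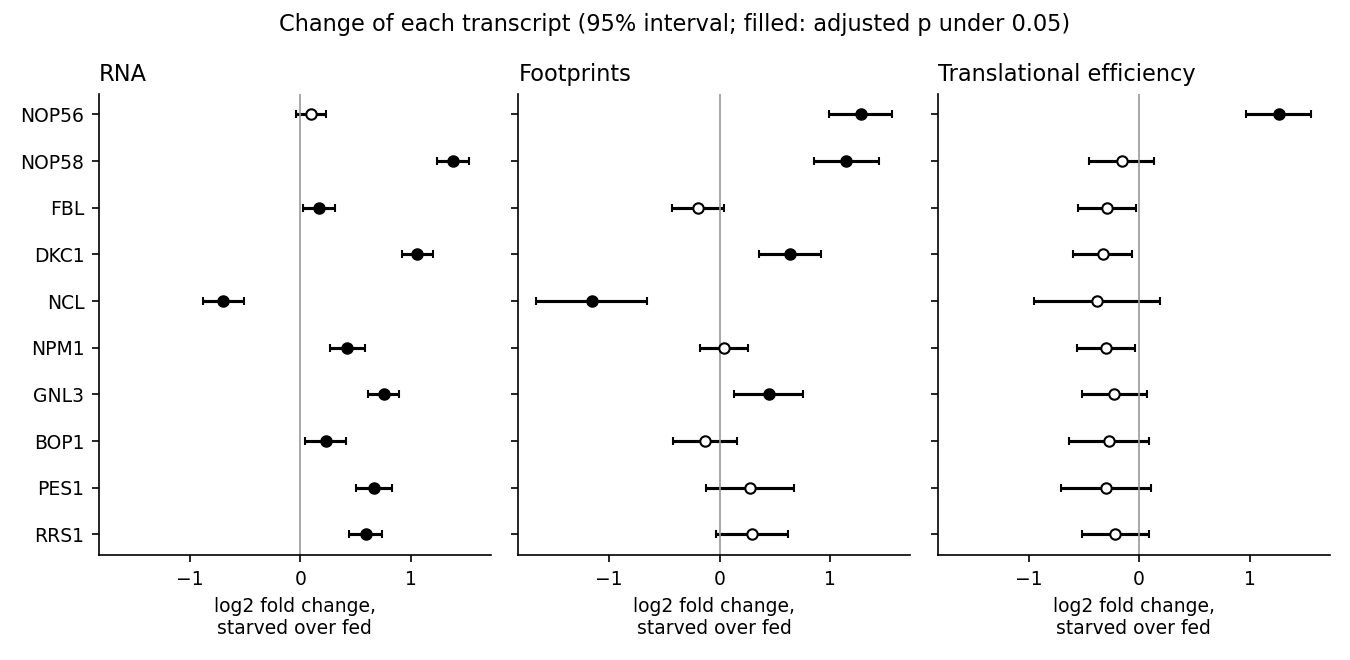
Log2 fold change of starved over fed cells for each transcript, with its 95% interval, in RNA, footprints and translational efficiency; filled points have an edgeR adjusted p under 0.05. In RNA 9 points are filled, in footprints 5, and in efficiency only NOP56, at 1.26.

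The 3 factors of large subunit assembly had more RNA in starved cells but no called change in footprints. PES1 RNA was 91.2, 113 and 114.5 CPM in starved libraries and 70.1, 64.8 and 65.5 CPM in fed libraries (log2 fold change 0.66, SE 0.08, edgeR adjusted p = 8.25e-11). RRS1 RNA was 104, 113 and 108 CPM in starved libraries and 71.3, 72.4 and 71.2 CPM in fed libraries (log2 fold change 0.59, SE 0.08, edgeR adjusted p = 3.07e-10). Neither overlapped between the groups. BOP1 RNA was 66.6, 79.5 and 72.7 CPM in starved libraries and 71.5, 66.0 and 48.7 CPM in fed libraries. The BOP1 groups overlapped, and its call (log2 fold change 0.23, SE 0.09, edgeR adjusted p = 0.0235) was lost without fed RNA replicate 3, with a log2 fold change of 0.08, and without starved RNA replicate 2, with 0.17. It was also lost with library totals (0.12, edgeR adjusted p = 0.285), and without fed RNA replicate 1 the change was larger (0.37, edgeR adjusted p = 0.00281).

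Footprints on PES1 were 119, 179 and 212 CPM in starved cells and 137, 131 and 155 CPM in fed cells. RRS1 footprints were 132, 193 and 189 CPM in starved cells and 145, 135 and 141 CPM in fed cells. For both, starved replicate 1 was the lowest of the 6 libraries and the others were above the fed range. Their log2 fold changes of 0.28 and 0.29 were not called (edgeR adjusted p = 0.251 and 0.14), and without starved footprint replicate 1 they were 0.45 and 0.42 and called (edgeR adjusted p = 0.0131 and 0.0103). The other left-out libraries gave no call: PES1 had its lowest value, 0.082, without starved footprint replicate 3, and RRS1 its lowest, 0.20, without starved footprint replicate 2. BOP1 footprints were 84.2, 98.0 and 105 CPM in starved cells and 97.9, 106 and 113 CPM in fed cells, overlapping, with a log2 fold change of −0.13 (edgeR adjusted p = 0.437).

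Set against its complex partner, BOP1 had a lower count in every starved library, and also in every fed footprint library and in fed RNA replicate 3. The BOP1 to PES1 count ratio in RNA was 0.730, 0.702 and 0.635 in starved libraries and 1.02, 1.02 and 0.743 in fed libraries. In footprints it was 0.708, 0.547 and 0.494 in starved and 0.714, 0.808 and 0.727 in fed libraries. The groups did not overlap in either assay, with log2 differences of −0.42 in RNA and −0.38 in footprints (exact permutation test, p = 0.1 each, adjusted 0.133). The gap between the nearest libraries was small in both.

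**Figure D4:**
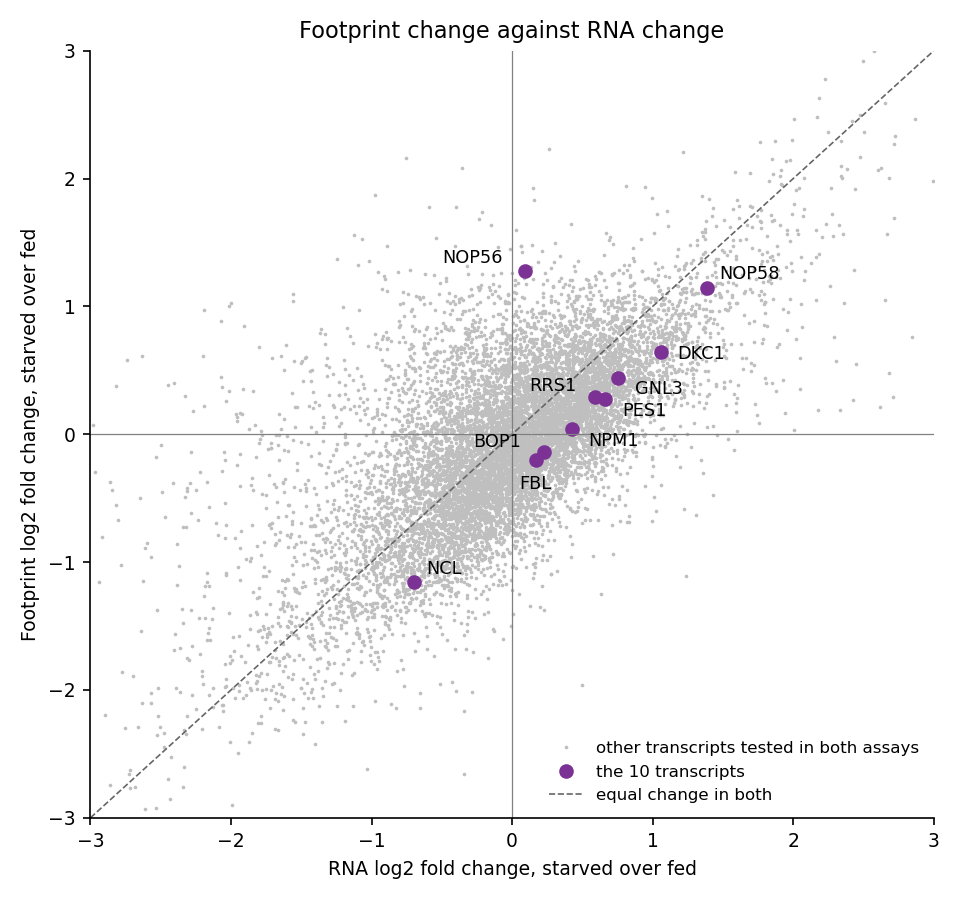
Footprint log2 fold change against RNA log2 fold change, starved over fed, for the 11027 transcripts tested in both assays (grey; 74 lie beyond the axes) and the 10 transcripts (purple), with a dashed line of equal change. NOP56 lies above the line, at 0.09 in RNA and 1.28 in footprints, and the other 9 lie below it. Each axis uses the scaling factors of its own assay, with which the median efficiency difference of all transcripts was −0.11. The distance from the line is therefore not the efficiency difference given in the text, whose factors came from transcripts kept in both assays.

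In the other 9 transcripts the footprint change was smaller, or more negative, than the RNA change. Their efficiency differences ran from −0.38 to −0.16 with a median of −0.29, and none was called by edgeR (adjusted p from 0.0694 to 0.45). These values depend on how the assays are scaled: with the abundance trend of each library removed, GNL3 and NOP58 had values above 0, and the median over the 10 was −0.07, against −0.28 with TMM scaling. Without starved footprint replicate 1 that median was −0.13, with NCL at −0.13, PES1 at −0.13, RRS1 at −0.095, NOP58 at −0.082 and GNL3 at −0.13. The values of abundant transcripts are given beside them. The 2206 transcripts with the most RNA held 7 of the 10 and had a median efficiency difference of −0.16, with 9.79% called higher and 24.8% called lower. Of those abundant transcripts 51.5% were called higher in RNA, against 33.8% of all tested.

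The transcripts also differed in their ratio of footprint to RNA CPM, and in fed cells the order of this ratio coincided with a feature of the genes. The region counted in each assay is not given, so the ratio does not compare ribosome loading between genes. RefSeq places 19 snoRNA genes within 5 of the 10 genes: 5 each within NOP56 and GNL3, 4 within NOP58, 3 within NCL and 2 within DKC1. In NOP56 they are SNORD110, SNORA51, SNORD86, SNORD56 and SNORD57. Such snoRNAs are cut from introns as the host transcript is spliced. None is listed within FBL, NPM1, BOP1, PES1 or RRS1. This grouping was made after the values were seen, so it is given with no test.

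In starved cells, the ratio of mean footprint CPM to mean RNA CPM was 0.577 for NCL, 0.614 for DKC1, 0.738 for NOP58 and 0.824 for GNL3, while NOP56, also a gene with snoRNAs, stood at 1.67, within the range of the 5 genes without them (1.03 to 1.74). In fed cells, the ratio was between 0.695 and 0.967 in the 5 genes with snoRNAs and between 1.27 and 2.17 in the 5 without, so that these gene groups did not overlap. NOP56 had the lowest fed ratio of the 10, 0.695, below that of NCL (0.755), DKC1 (0.776), NOP58 (0.82) and GNL3 (0.967). The median over all transcripts was 0.954 in starved and 0.96 in fed cells. By this ratio NOP56 stood above 75.0% of all transcripts in starved cells and above 34.9% in fed cells. The 5 genes with snoRNAs were also the 5 whose footprints were called changed, 4 higher and NCL lower, against 0 of the 5 without. Over all tested transcripts 18.9% were called higher in footprints and 20.9% lower, so calls were common, and the division rests on the GNL3 call, and on PES1 and RRS1, which were called without starved footprint replicate 1.

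**Figure D5:**
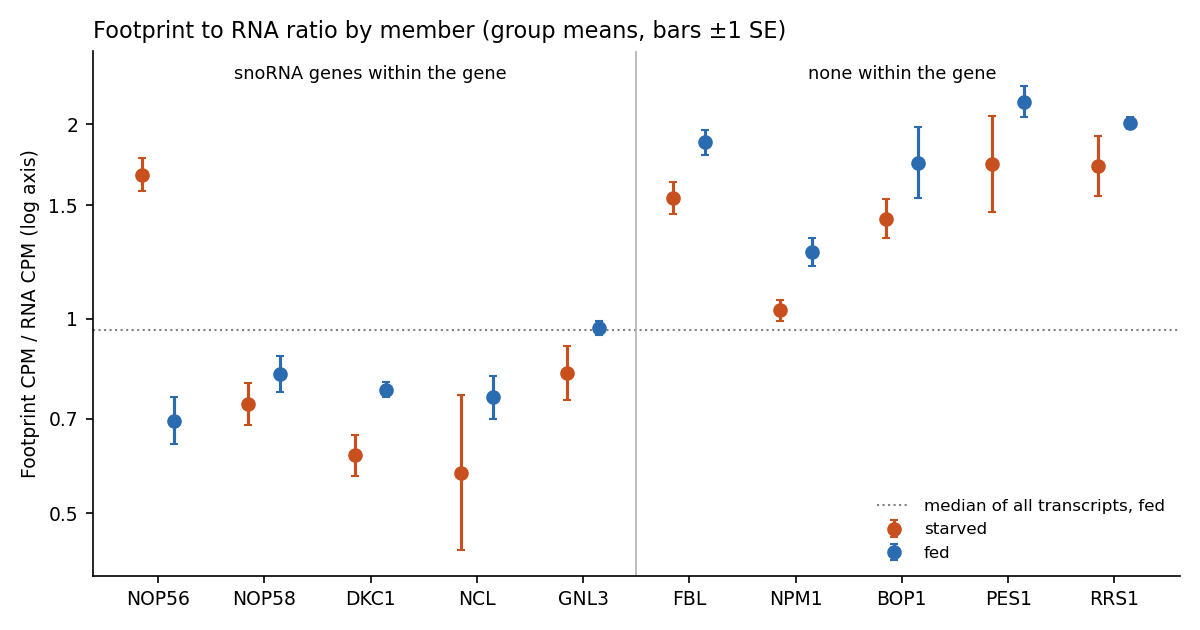
Ratio of footprint CPM to RNA CPM (log axis) from group means, with bars of 1 standard error, for genes with snoRNA genes within them (left) and without (right); starved left of fed, and the dotted line is the median of all transcripts in fed cells. NOP56 stands at 1.67 in starved cells. In fed cells the left group, NOP56 included, lies between 0.695 and 0.967 and the right group between 1.27 and 2.17. The region counted in each assay is not given, so heights do not compare ribosome loading between genes.

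As a share of all counts, the 10 transcripts took 0.45 ± 0.0497% of RNA counts in starved and 0.405 ± 0.00733% in fed libraries, and 0.429 ± 0.0483% of footprints in starved and 0.399 ± 0.0287% in fed libraries (SD, n = 3). NPM1 and NCL made up most of this in starved and in fed cells. Without them the 8 remaining transcripts took 0.187 ± 0.0147% of RNA counts in starved and 0.126 ± 0.00234% in fed libraries, and 0.199 ± 0.0242% of footprints in starved and 0.134 ± 0.00388% in fed libraries (SD, n = 3). The ranges of the 8, which leave out the falling NCL, did not overlap between treatments in either assay. Those of all 10 overlapped in both assays. The 10 took 0.408 to 0.505% of RNA counts in starved and 0.398 to 0.413% in fed libraries. Of footprints they took 0.374 to 0.462% in starved and 0.378 to 0.431% in fed libraries.

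Some reads of these transcripts may come from elsewhere. RefSeq names 50 pseudogenes of NPM1, 3 of NOP56, 2 of NCL, 2 of PES1 and 1 of FBL. The kit used for the RNA libraries does not mark strand, and RefSeq has SCX overlapping BOP1, GLT8D1 overlapping GNL3 and LOC102724687 overlapping RRS1. The part of shared or overlapping reads in the values above was not tested.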

How the data were processed

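RNA-seq and ribosome profiling libraries of starved and fed RKO cells were analysed, 3 per group and assay. Both deposited tables, 1 per assay, hold raw counts for Ensembl transcripts: the values are whole numbers and were not normalized. The tools named in the submitters' processing notes are STAR, cutadapt, DESeq2 and UMI-tools, with build GRCh38.p13; how reads were counted, over which region and with which annotation is not given in the sources used here. If footprints outside the coding sequence were counted, they enter the efficiency.

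Gene names come from the list that defines the members, since 0 of 19849 identifiers matched the gene tables; a wider list of nucleolar genes and epithelial markers is therefore not analysed here, nor was arginine content. The members and lists were chosen with earlier results of these data known. All 10 members are named, whatever their values.

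Tests used edgeR 4.0.16 under R 4.3.3 (filterByExpr, TMM factors, quasi-likelihood F test, treatment as the single term, assays apart). Efficiency was the interaction of assay and treatment over 12 libraries, with factors from transcripts kept in both assays. Partner ratios were tested by exact permutation. Alternatives were DESeq2 1.42.0 size factors and its Wald test, library totals, removal of each library's abundance trend (lowess, span 0.3), no filter on low counts, a replicate block and each library left out. The labels do not say whether libraries came from separate cultures, so p-values measure the spread between libraries, which may be technical. The biological coefficient of variation that edgeR estimated between libraries was 5.75% for RNA and 13.7% for footprints.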

Additional observations from a re-analysis of the deposited data

How the results depend on the processing

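Calls in RNA ranged from 7 to 10 of the 10 transcripts over leaving out each library and from 7 to 9 over the other settings. In footprints they ranged from 4 to 7 and from 4 to 6. NCL was the single transcript called lower in both assays in each of these. Calls were common over all transcripts too. With library totals, 6 of the 10 were called higher in RNA and 1 lower, against 3189 and 4677 of 11572 transcripts. With the replicate block, 3 of the 10 were called higher in footprints and 1 lower, against 2148 and 2507 of 13457 transcripts. Counted without direction, the lower ends of these ranges are near the share over all transcripts. NOP56 was the single transcript with efficiency called higher in all 19 alternatives. Efficiency calls as a whole numbered 1 to 2 with a library left out (0 to 1 lower), 4 with no filter (3 lower) and 2 with the Wald test of DESeq2 (1 lower). They numbered 4 with scaling factors from each assay's own transcripts (3 lower: DKC1, FBL and NPM1). That alternative was chosen after seeing the data and moves the median efficiency difference of all transcripts to −0.11. Over all transcripts, 1032 of 15054 were called higher and 1705 lower with no filter, and 1005 of 11027 higher and 1739 lower with those factors. Signs turned with the abundance trend removed for RNA of NOP56 (−0.076) and FBL (−0.015) and efficiency of NOP58 (0.092) and GNL3 (0.018), with library totals for RNA of NOP56 (−0.018), and for footprints of NPM1 with no filter (−0.0082) and with a library left out (from −0.046, without fed footprint replicate 3, to 0.069); the cause was not tested. RNA calls of FBL and BOP1 were lost with library totals, with the abundance trend removed and with the Wald test of DESeq2; the RRS1 footprint change was called with the trend removed (0.41, edgeR adjusted p = 0.035). With library totals the median RNA change of all transcripts was −0.12, which shifts every RNA change down. Of 430 alternative values for single genes, 391 kept their direction and their side of the threshold. That number includes values that were never called, and the alternatives share libraries, so it is no measure of how firm a call is. Calls near the threshold often failed. Of 12 alternatives each, the GNL3 footprint call was lost in 7 and the BOP1 RNA call in 5. The FBL RNA call was lost in 6 with its direction kept, and in 1 the direction turned. Correlations of same-numbered deviations ran from −0.19 to 0.13 between starved and fed libraries, and from −0.026 to 0.15 between footprint and RNA libraries. Deviations from means of 3 libraries cannot show whether same-numbered libraries were paired. With the replicate block, the NOP56 efficiency difference was 1.27, and GNL3 footprints were no longer called (0.42, edgeR adjusted p = 0.0519). Partner ratios kept their sign in each alternative. With RNA standard errors of at most 0.09, changes of RNA were better resolved than those of footprints or efficiency.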
